A study of Mus musculus with 53 samples.

Results

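The negative feedback and output genes of the RAS-RAF-MEK-ERK cascade were followed through a mouse series on BRAF-driven right-sided colon tumours. The 10 genes were taken by symbol from the table of raw read counts, which holds 55421 genes: Dusp4, Dusp5, Dusp6, Spry2, Spry4, Spred1, Etv4, Etv5, Phlda1 and Fosl1. All 10 were found, and the rule used their symbols alone. The series holds 53 RNA-seq libraries of whole tissue in 11 groups. Every mouse carried VilCreER, a tamoxifen-inducible Cre that the villin promoter restricts to the intestinal epithelium, so stroma, muscle and immune cells in each sample kept their unrecombined alleles.

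From the proximal colon there were 4 primary tumours of VilCreER+ BrafV600E/+ Alk5fl/fl mice (BA) with 3 WT samples, where WT means VilCreER+ with no other allele. Tissue taken 30 days after induction came from 5 BA mice, 5 BA mice on antibiotics, 4 VilCreER+ Alk5fl/fl mice (A), 4 A mice given sulindac and 4 WT mice. From the small intestine, tissue at day 4 came from 10 VilCreER+ APCfl/fl mice and 6 WT mice, and 5 primary tumours of VilCreER+ Apcfl/+ mice were set beside 3 WT samples. The antibiotics were ampicillin, neomycin and metronidazole at 1 g/L each and vancomycin at 500 mg/L in the drinking water, and sulindac, a non-steroidal anti-inflammatory drug, was given at 0.4 g/L for 14 days, followed by plain water. The Apcfl/+ tumours and their WT samples were inbred C57BL6/J (N9) and all others mixed C57BL/6J (N6). Every BRAF-mutant group also lacked Alk5, no group carried BrafV600E alone, and the Apc groups came from another part of the gut, so BRAF and Apc effects could be compared only through each group's own WT.

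BRAF phosphorylates MEK, which phosphorylates ERK, and active ERK induces genes that switch the same cascade off. DUSP4, DUSP5 and DUSP6 are phosphatases that remove phosphate from ERK, the first pair in the nucleus and DUSP6 in the cytoplasm. Sprouty proteins (SPRY2, SPRY4) and SPRED1 act further up, on RAS and RAF. ETV4 and ETV5 are ETS transcription factors, FOSL1 is a FOS family partner in AP-1, and PHLDA1 is a pleckstrin homology domain protein induced by growth factors. Levels of these RNAs are widely read as a measure of ERK output. BRAFV600E is an always active form of BRAF that signals without RAS.

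In GRCm38 coordinates, all 10 are protein-coding. The phosphatase genes lie at chr8:34807297-34819894 (Dusp4, plus strand), chr19:53529109-53542431 (Dusp5, plus) and chr10:99263231-99267489 (Dusp6, plus). The cascade inhibitors lie at chr14:105891947-105896819 (Spry2, minus), chr18:38586247-38601415 (Spry4, minus) and chr2:117121374-117182279 (Spred1, plus). The ETS factors lie at chr11:101769742-101785371 (Etv4, minus) and chr16:22381309-22439719 (Etv5, minus), Phlda1 at chr10:111506286-111508645 (plus) and Fosl1 at chr19:5447547-5455946 (plus). The library kit did not mark strand, and exons of Dusp5, Phlda1 and Fosl1 overlap those of a gene on the opposite strand (AC137853.2, Gm28592 and Ccdc85b) by 547, 727 and 1163 bases. Reads of these pairs cannot be told apart there. Of the 36-base words in the transcripts of Etv5, 28.7% also occur in transcripts of other genes, and Gm4798 shares the most of them.

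Promoter sequences of Dusp5, Dusp6 and Etv5 are shown because the first pair and Etv5 parted in opposite directions between BRAF-mutant and Apc-mutant tissue, as given further on. They are taken from the 250 bases before the RefSeq start site, on GRCm38.p6, and end where the gene begins in the GENCODE annotation. For Dusp5 and Etv5 that point lies upstream of the RefSeq start, and 214 and 101 bases remained. Another Etv5 entry had 0 bases left and is not shown. Capitals mark CArG boxes, the binding motif of serum response factor, which works with ERK-regulated ETS factors at growth-factor-induced genes.

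Dusp5, chr19:53528895-53529108, plus strand: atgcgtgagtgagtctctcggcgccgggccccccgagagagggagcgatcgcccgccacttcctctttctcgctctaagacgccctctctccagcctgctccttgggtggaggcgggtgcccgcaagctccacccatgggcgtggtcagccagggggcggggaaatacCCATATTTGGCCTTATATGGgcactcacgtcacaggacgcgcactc
Dusp6, chr10:99262981-99263230, plus strand: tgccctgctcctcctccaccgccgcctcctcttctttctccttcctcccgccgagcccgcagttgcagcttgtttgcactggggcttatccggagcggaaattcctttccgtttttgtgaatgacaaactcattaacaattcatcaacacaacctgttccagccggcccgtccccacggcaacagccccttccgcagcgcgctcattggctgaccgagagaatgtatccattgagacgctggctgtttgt
Etv5, chr16:22439720-22439820, minus strand: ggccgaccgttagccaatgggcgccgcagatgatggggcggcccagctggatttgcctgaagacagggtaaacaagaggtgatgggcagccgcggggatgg

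The Dusp5 promoter held 2 adjacent CArG boxes, whose first letters lie 46 and 36 bases before the gene start in GENCODE, or 82 and 72 before the RefSeq start at 53529145. Over 32851 mouse promoters, 1.47% held this motif in the 250 bases before the start. This motif was searched after the sequences had been read. The letters CCGGAA (an ETS core), TGANTCA (AP-1), TGACGTCA (CRE) and CTTTGNT (TCF/LEF), each on both strands, occurred in 3952, 2217, 508 and 5248 of these promoters. None of them was found in the 250-base windows of the 5 members with an entry, which were Dusp5, Dusp6, Spry2, Spred1 and Etv5. These are matches of letters, not sites of binding.

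Library totals ran from 516985 to 32824795 reads on genes. The lowest was APCfl/fl replicate 1. Counts are given as normalised CPM, the CPM of a gene after scaling with 1 set of TMM factors over all libraries, and fold changes come from a separate edgeR fit for each comparison. The targeted genes could not check the genotypes, because the counts cover all exons and the tissue was whole: means of Braf were 32.9 to 45.4 normalised CPM in the proximal colon groups, and Tgfbr1, which encodes ALK5, ran from 34.7 to 65.2 in d30 WT, 41.9 to 58.2 in d30 BA and 33.5 to 59.9 in d30 A. In BA tumours Tgfbr1 was at 91.5 to 172 against 49.4 to 55.9 in WT, every tumour above every WT sample. All 10 epithelial markers exceeded a mean of 1 CPM in every group. The predicted gene Gm13394 exceeded 10 CPM in all 18 d30 BA and A libraries and in 0 of the 4 d30 WT libraries, in all 3 small intestine WT libraries and 0 of 5 Apcfl/+ tumours, and in 3 of 4 BA tumours and 0 of 3 WT. In these comparisons the genotype and whatever sets Gm13394 cannot be told apart. Ddx3y, a Y-linked gene, exceeded 10 CPM in 3 of 4 BA tumours and 0 of 3 WT, and in 1 of 5 Apcfl/+ tumours and 3 of 3 WT.

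**Figure D1:**
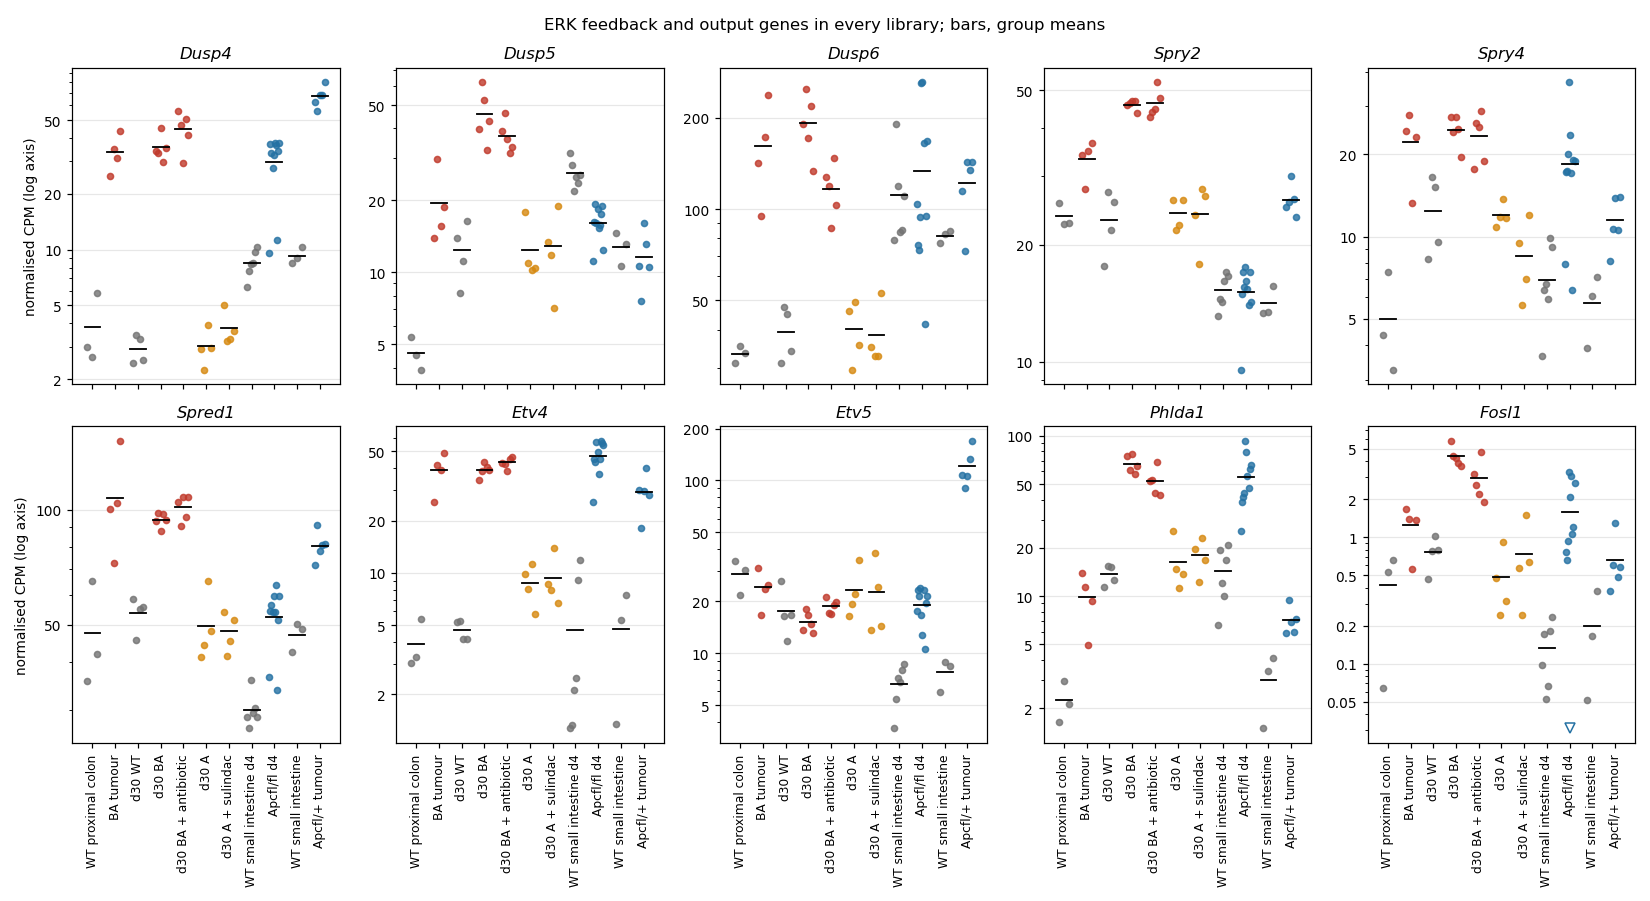
Normalised CPM of the 10 genes on log axes, 1 point per library and a bar for the group mean, with WT in grey, BA in red, A in orange and Apc groups in blue. The open triangle is the 1 library in which Fosl1 was at 0. The red points of Dusp4 sit between 24.8 and 56.2 and its grey and orange proximal colon points between 2.26 and 5.82, while Etv5 is highest in the Apcfl/+ tumours.

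Per kilobase of exon, Dusp6 was the most abundant member in d30 BA tissue, with a mean of 61.5 normalised CPM per kb. Phlda1 followed with 30.39, Dusp5 stood at 18.6, and Fosl1 was lowest with 2.16. In d30 WT tissue the order was led by Dusp6 at 12.6 and Spry2 at 11.1, and Dusp4 stood at 1.07. Across the 11 groups, the 4 highest group means of Dusp4 were those of Apcfl/+ tumours, d30 BA with antibiotics, d30 BA and BA tumours, and neighbours in that order overlapped. For Dusp5 and for Phlda1 the highest mean was in d30 BA, at 46.05 and 67.0 normalised CPM, and for Spry2 in d30 BA with antibiotics, at 46.4. The WT groups themselves differed: Phlda1 was at 2.24 ± 0.653 normalised CPM (SD, n = 3) in WT proximal colon and 13.7 ± 1.97 (SD, n = 4) in d30 WT. The order of means across the 11 groups is therefore a description. Changes were tested against the matching WT, between day-30 groups, or as differences of effects against each group's own WT.

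In BA tumours, 7 of the 10 genes were higher than in WT proximal colon and 0 were lower, where 7.46% of all genes tested were called higher and 5.71% lower. The median log2 fold change was 2.09 over the members and 0.03 over all genes. For 8 of the 10 every tumour lay above every WT sample, beside 14.6% of all genes. A call here means an adjusted p under 0.05.

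The phosphatases rose together. Dusp4 stood at 24.8, 35.1, 31.3 and 43.4 normalised CPM in the 4 tumours and at 2.97, 2.64 and 5.82 in the 3 WT samples. The groups did not overlap, and the log2 fold change was 3.13 ± 0.36 (SE, adjusted p = 0.00197). Dusp5 was at 13.9, 29.7, 15.7 and 18.8 in the tumours against 5.36, 4.52 and 3.93, a log2 fold change of 2.06 ± 0.33 (SE, adjusted p = 0.0058). Dusp6, the cytoplasmic phosphatase, was at 142, 94.9, 173 and 237 against 30.9, 35.2 and 33.5. Its lowest tumour was still above every WT sample, and it rose by 2.27 ± 0.31 on the log2 scale (SE, adjusted p = 0.00329).

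Of the inhibitors above ERK, Spry4 rose by 2.13 ± 0.36 and Spred1 by 1.16 ± 0.30 (log2, SE; adjusted p = 0.00702 and 0.034). Spry2 was at 27.9 to 36.6 normalised CPM in tumours and 22.7 to 25.6 in WT, without overlap, and its log2 fold change of 0.47 ± 0.18 (SE) had an adjusted p of 0.115. Of the transcription factors, Etv4 had the largest change of the 10. Its tumours stood at 25.6, 42.0, 39.0 and 49.0 normalised CPM and its WT samples at 3.00, 3.29 and 5.396, a log2 fold change of 3.31 ± 0.33 (SE, adjusted p = 0.00118). For its paralogue Etv5 the groups overlapped, with tumours at 31.2, 16.6, 23.4 and 24.8 against 34.3, 21.6 and 30.48 and an interval of the log2 fold change from -0.85 to 0.26. Phlda1 rose by 2.12 ± 0.39 (log2, SE; adjusted p = 0.0103). Fosl1 was counted with only 2 to 37 reads per library, and its log2 fold change of 1.599 ± 0.70 (SE) had an adjusted p of 0.169.

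Fewer cells of a type and less RNA per cell cannot be told apart in such whole-tissue samples. Markers of several other cell types, though not of all, were higher in the tumours. Summed fibroblast markers ran from 5120 to 6580 normalised CPM against 1880 to 2880 in WT, immune markers from 556 to 1570 against 331 to 370, neutrophil markers from 40.1 to 131 against 10.4 to 16.2 and endothelial markers from 154 to 327 against 96.1 to 119. Smooth muscle markers overlapped, at 1470 to 2980 against 1950 to 8110, with a ratio of medians of 0.399. Markers of interstitial cells of Cajal and enteric nerves overlapped too, at 114 to 186 against 99.5 to 204. The part of these cell types in the members' levels was not tested. Summed epithelial markers overlapped, at 11400 to 17800 against 13800 to 17000. The 1 tumour with Ddx3y under 10 CPM, set alone against WT, gave log2 fold changes of 2.55 for Dusp4, 1.44 for Dusp5, 1.95 for Dusp6, 2.14 for Spry4, 0.93 for Spred1, 2.56 for Etv4 and 2.50 for Phlda1, values of a single library from which no call is read. The call of Spred1 was also lost when either BA tumour 3 or 4 or either WT sample 1 or 3 was left out, with log2 fold changes of 0.95 to 1.16, and that of Phlda1 without WT sample 1 or 3 (1.93 and 2.11).

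**Figure D2:**
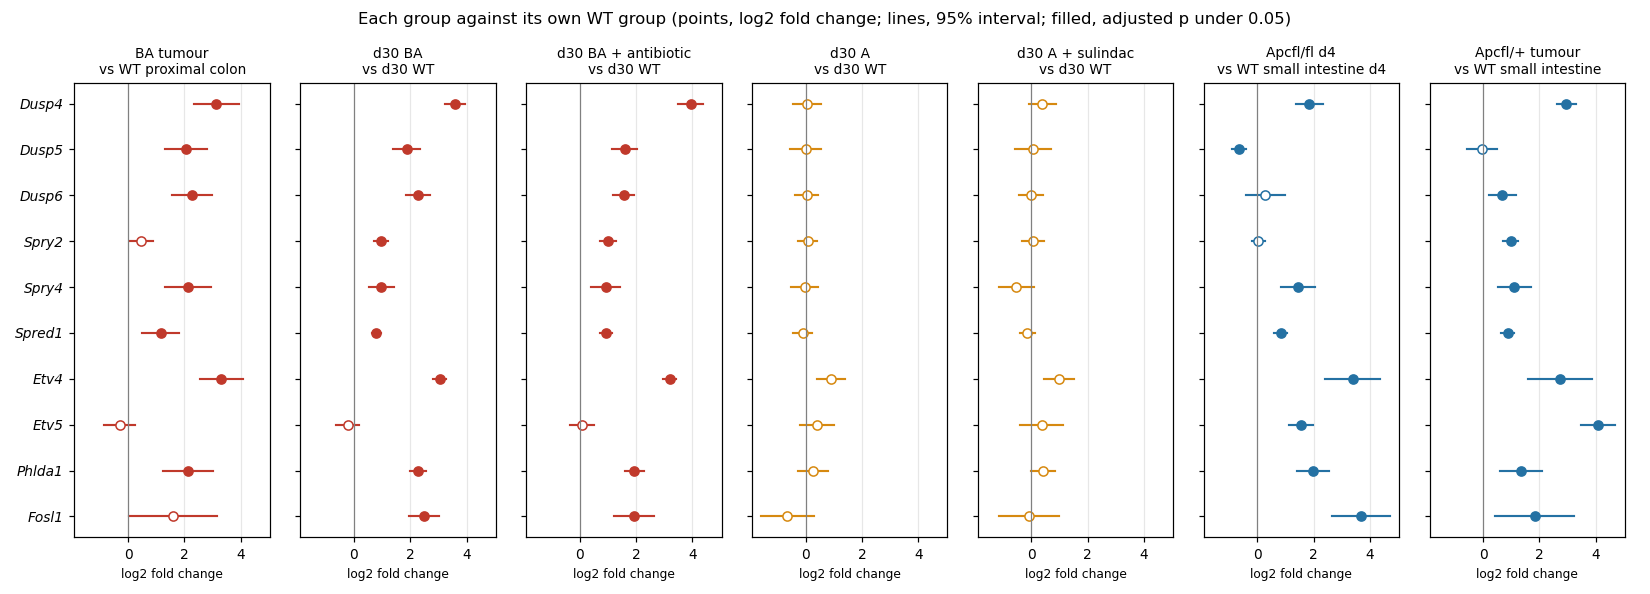
Log2 fold change of each gene (points) with its 95% interval (lines) for 7 groups, each against its own WT. Filled points passed an adjusted p under 0.05. In the 3 BRAF-mutant panels Dusp4, Dusp5, Dusp6 and Etv4 lie to the right of 0 and the intervals of Etv5 cross 0, in the 2 A panels no point is filled, and in the 2 Apc panels Etv5 is filled on the right while Dusp5 is filled on the left at day 4 and open in tumours.

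At day 30, 9 of the 10 genes were higher in BA colon than in d30 WT and 0 were lower. Here 25.8% of all genes tested were called higher and 29.3% lower. The members' median log2 fold change was 2.07 against -0.03 over all genes, and 16.8% of all genes changed by more than 1 on the log2 scale in either direction. For all 9 the groups did not overlap, which held for 22.6% of all genes in that direction.

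Dusp4 was at 34.1, 33.3, 45.4, 29.8 and 35.2 normalised CPM in the 5 BA mice and at 2.44, 3.46, 3.29 and 2.53 in the 4 WT mice. That was 11.97-fold (log2 fold change 3.58 ± 0.16, SE, adjusted p = 4.81e-08). Dusp6 was at 191, 248, 172, 218 and 133 against 31.0, 47.5, 45.2 and 34.0, or 2.27 ± 0.19 on the log2 scale (SE, adjusted p = 3.25e-06). Dusp5 was at 39.9, 62.6, 52.5, 32.4 and 42.9 against 14.0, 8.17, 11.1 and 16.5, and rose by 1.88 ± 0.22 (log2, SE; adjusted p = 3.64e-05). Every BA mouse lay above every WT mouse for all 3 phosphatases. Etv4 was at 34.4 to 43.4 in BA and 4.16 to 5.29 in WT, a rise of 3.04 ± 0.11 (log2, SE; adjusted p = 1.5e-08). Phlda1 rose by 2.28 ± 0.13 and Fosl1 by 2.48 ± 0.24 (log2, SE; adjusted p = 1.54e-07 and 8.72e-06), and Fosl1 was counted with 51 to 86 reads in each BA library and 9 to 22 in each WT library.

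The inhibitors above ERK also rose. Spry2 was at 43.6 to 46.9 normalised CPM in BA and 17.7 to 27.4 in WT, Spry4 at 19.6 to 27.3 against 8.32 to 16.6, and Spred1 at 88.0 to 97.95 against 45.8 to 58.6. Their log2 fold changes were 0.97 ± 0.11, 0.97 ± 0.20 and 0.80 ± 0.08 (SE), with adjusted p of 3.52e-05, 0.00165 and 7.89e-06. Etv5 was at 13.02 to 17.99 in BA and 11.7 to 26.0 in WT, and its interval ran from -0.64 to 0.20.

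The summed epithelial markers differed between the same mice, at 26600 to 30700 normalised CPM in d30 BA and 13500 to 16100 in d30 WT, a ratio of the medians of 2.17. Smooth muscle markers were lower, at 959 to 3920 against 4710 to 5480, as were the markers of interstitial cells of Cajal and enteric nerves, at 52.7 to 74.7 against 128 to 162. Fibroblast markers also lay below every WT mouse, at 1300 to 1650 against 1760 to 2140. When each library's value was divided by its own summed epithelial markers, a scale chosen after the data had been seen, Spry2, Spry4 and Spred1 had ratios of d30 BA to d30 WT of 0.982, 0.990 and 0.857 and the groups overlapped. Dusp4 remained 5.97 times higher, Etv4 4.11, Fosl1 2.81, Dusp6 2.43, Phlda1 2.41 and Dusp5 1.78 times higher, and all 6 stayed without overlap. Etv5 was at 0.423 of WT on this scale, with every BA mouse below every WT mouse. In BA tumours, where epithelial markers overlapped, Spry4 had a ratio of 4.56 on the same scale and Spred1 of 2.26, both without overlap. With antibiotics, 4 of the 10 genes (Dusp4, Dusp6, Etv4 and Phlda1) stayed above every d30 WT mouse on that scale. Etv5 was at 0.516 of WT, with every treated mouse below every WT mouse. The other members overlapped, among them Dusp5 (1.44) and Fosl1 (1.84). For the counts on this scale, here and further on, the share of all genes without overlap was not computed.

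**Figure D3:**
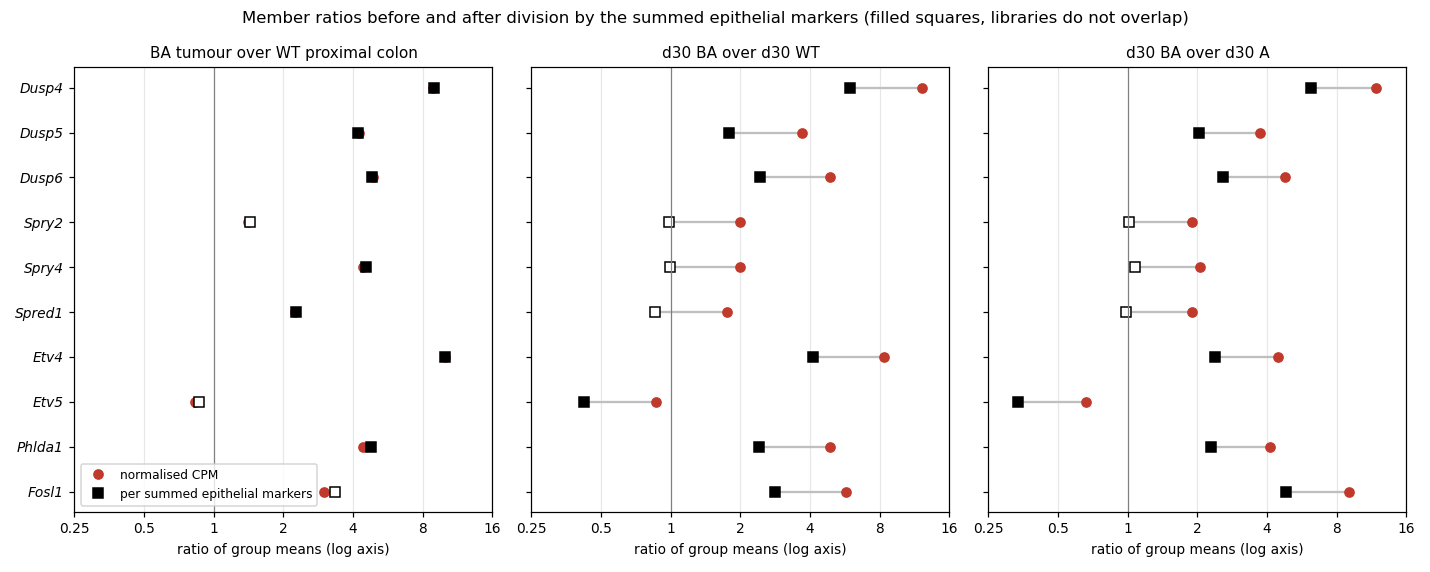
Ratio of group means for each gene on a log axis, from normalised CPM (red circles) and after division by each library's summed epithelial markers (squares, filled where the libraries of the 2 groups do not overlap). In day-30 tissue the squares of Spry2, Spry4 and Spred1 lie near 1 and those of Dusp4 at 5.97 or above, whereas in BA tumours circles and squares nearly coincide.

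With Alk5 loss alone, 0 of the 10 members were called in either direction in d30 A tissue, and 0.141% of all genes were. At an unadjusted p under 0.05 there was 1, Etv4, beside 1717 of all 17713 genes tested. The members' median log2 fold change was 0.04. For Dusp4 the 4 A mice stood at 2.91, 2.26, 3.94 and 2.96 normalised CPM, overlapping the WT mice, and the interval of its log2 fold change was -0.44 to 0.54. For Dusp6 it was -0.38 to 0.45 and for Dusp5 -0.55 to 0.55, and the log2 fold changes of d30 BA lay outside all 3 intervals. Etv4 was the 1 member without overlap, at 9.87, 8.11, 11.3 and 5.76 in A against 5.199, 5.29, 4.18 and 4.16 in WT, a pattern found for 2.48% of all genes. Its log2 fold change was 0.90 ± 0.22 (SE, unadjusted p = 0.00178 and adjusted p = 0.313 in edgeR), and DESeq2 called it, with an adjusted p of 0.0291.

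Sulindac-treated A mice gave the same count of 0 of 10 against d30 WT, with 0.0507% of all genes called. Etv4 again lay above WT in every mouse, at 8.61, 7.99, 14.0 and 6.67 normalised CPM, as 1.94% of genes did, with a log2 fold change of 0.99 ± 0.24 (SE, adjusted p = 0.335 in edgeR). DESeq2 gave an adjusted p of 0.0205 and the fit of all 5 day-30 groups 0.035. Both A groups were set against the same 4 WT mice. Summed smooth muscle markers lay below WT in every sulindac-treated mouse, at 2490 to 4660 normalised CPM against 4710 to 5480. The other marker lists overlapped WT, and the part of smooth muscle was not tested. Directly against untreated A mice, 0 of the 9 members tested were called after sulindac and 0% of all 17568 genes in edgeR, where 460 had an unadjusted p under 0.05, 0 of them members, and DESeq2 called 7. Fosl1 had too few reads to be tested there. Spry4 had the lowest log2 fold change, -0.48 with an interval of -1.01 to 0.06, and Dusp4 the highest, 0.35 with an interval of -0.21 to 0.90.

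The contrast of d30 BA with d30 A holds Alk5 loss in both groups and differs by the BrafV600E allele. Gm13394 did not separate these groups. Of the 10 members, 9 were higher and 1 was lower in BA, where 21.7% and 23.6% of all genes were called higher and lower. Dusp4 rose by 3.57 ± 0.18, Fosl1 by 3.16 ± 0.34, Dusp6 by 2.28 ± 0.21, Etv4 by 2.18 ± 0.17, Phlda1 by 2.07 ± 0.20 and Dusp5 by 1.92 ± 0.22 (log2, SE), with adjusted p from 3.44e-07 to 5.3e-05. Spry2, Spry4 and Spred1 rose by 0.94 ± 0.09, 1.05 ± 0.13 and 0.93 ± 0.14 (log2, SE), with adjusted p of at most 0.000304. Again all 9 were without overlap, which 18.1% of all genes were in that direction.

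Etv5 was at 13.7, 17.99, 16.6, 14.8 and 13.02 normalised CPM in BA and 16.5, 19.2, 21.99 and 34.6 in A. The groups overlapped, and the log2 fold change was -0.59 ± 0.20 (SE, adjusted p = 0.033). That call was lost when A replicate 4 was left out (-0.30) or any of BA replicates 1, 4 and 5 (-0.54 to -0.56), and in the joint edgeR fit of the 5 day-30 groups (-0.62, adjusted p = 0.0616). Summed epithelial markers were 2.14 times higher by their medians in BA than in A, and after division by them Spry2, Spry4 and Spred1 had ratios of 1.01, 1.07 and 0.983 and overlapped. On that scale Etv5 was at 0.335 of A with every BA mouse below every A mouse, and the other 6 members stayed above A without overlap, at 2.04 (Dusp5) to 6.18 (Dusp4). The share of all genes was not computed there.

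**Figure D4:**
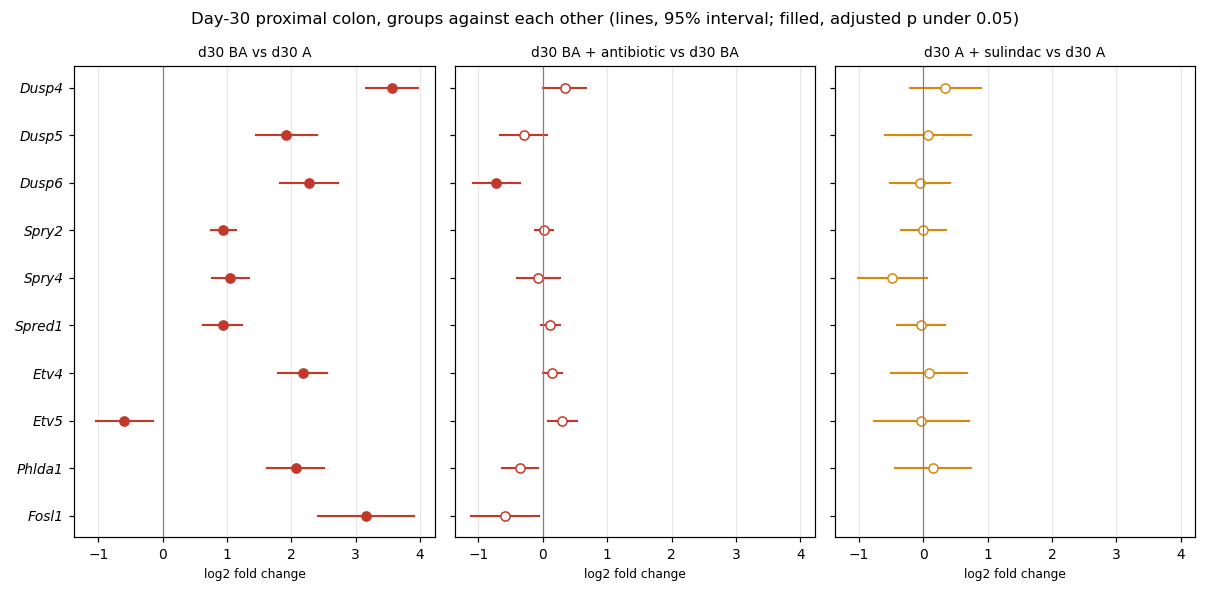
Log2 fold changes with 95% intervals among day-30 proximal colon groups, filled where the adjusted p was under 0.05. All 10 points are filled for BA against A, only Dusp6 for antibiotic-treated against untreated BA, and none for sulindac-treated against untreated A, where Fosl1 has no point.

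Against d30 WT, 9 of the 10 genes were higher in antibiotic-treated BA mice and 0 lower, where 21.8% of all genes were called higher and 17.8% lower. Dusp4 was at 56.2, 47.2, 29.2, 50.6 and 41.7 normalised CPM and rose by 3.93 ± 0.20 (log2, SE; adjusted p = 4.12e-07). Etv4 rose by 3.20 ± 0.10 and Phlda1 by 1.93 ± 0.15 (log2, SE; adjusted p = 3.35e-08 and 7.77e-06). Dusp6 rose by 1.56 ± 0.17, Dusp5 by 1.59 ± 0.19 and Fosl1 by 1.92 ± 0.32 (log2, SE; adjusted p = 6e-05, 0.000133 and 0.00101). Etv5 had an interval of -0.34 to 0.52. For all 9 the groups did not overlap, beside 17.4% of all genes.

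Set directly against untreated BA mice, 1 member was lower and 0 were higher, where 8.50% of all genes were called lower and 4.53% higher. The member was Dusp6, at 127, 119, 86.7, 147 and 103 normalised CPM with antibiotics and 191, 248, 172, 218 and 133 without. Of the treated mice, only the one at 147 exceeded the lowest untreated mouse. The log2 fold change was -0.72 ± 0.17 (SE, adjusted p = 0.0173), and without treated replicate 5 it was -0.68 with an adjusted p of 0.0502. Fosl1 (-0.58 ± 0.24, SE, adjusted p = 0.128), Phlda1 (-0.36 ± 0.13, 0.0852) and Dusp5 (-0.30 ± 0.17, 0.243) had values on the same side, and Dusp4 (0.34 ± 0.15, 0.16) and Etv5 (0.30 ± 0.10, 0.0774) on the other, without passing. DESeq2 also called Phlda1 (adjusted p = 0.0448). Spry2 and Spry4 had intervals of -0.12 to 0.16 and -0.41 to 0.27. Fibroblast markers in the treated mice ran up to 9000 normalised CPM in 1 library against 1300 to 1650 in untreated BA mice, and their part was not tested.

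At day 4 after induction in the small intestine of APCfl/fl mice, 7 of the 10 members were higher and 1 was lower than in WT, beside 27.5% and 26.7% of all genes. The members' median log2 fold change was 1.496 against -0.000362 over all genes. Fosl1 and Etv4 changed most, by 3.68 ± 0.49 and 3.39 ± 0.47 (log2, SE; adjusted p = 1.37e-05 and 1.72e-05). Etv4 had its lowest, median and highest values at 25.5, 47.7 and 57.6 normalised CPM in the 10 APCfl/fl mice and at 1.27, 2.30 and 11.9 in the 6 WT mice, without overlap. Etv4, Etv5 and Phlda1 were the 3 members above every WT mouse, beside 6.54% of all genes. Fosl1 was scarce, with a median of 1.13 against 0.135 normalised CPM and 1 to 4 reads in each WT library. Its 0 reads in the smallest APCfl/fl library allow up to 5.80 CPM at that depth.

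Phlda1 (1.99 ± 0.27), Dusp4 (1.85 ± 0.23), Etv5 (1.54 ± 0.20), Spry4 (1.45 ± 0.29) and Spred1 (0.83 ± 0.11; all log2, SE) also rose, with adjusted p of at most 0.000435. Etv5 ran from 10.6 through a median of 20.3 to 23.9 normalised CPM in APCfl/fl and from 3.66 through 6.96 to 8.61 in WT, without overlap. Dusp5 went the other way. Its lowest, median and highest values were 11.2, 16.2 and 19.4 in APCfl/fl and 21.8, 25.3 and 31.5 in WT, a log2 fold change of -0.64 ± 0.12 (SE, adjusted p = 0.000316). Every APCfl/fl mouse lay below every WT mouse, as for 10.3% of all genes, but after division by the summed epithelial markers the ratio was 0.827 and the groups overlapped. Spry2 had an interval of -0.20 to 0.26.

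Dusp6 ranged widely at day 4, from 41.8 through a median of 99.2 to 262 normalised CPM in APCfl/fl and from 79.3 through 97.8 to 191 in WT, and its interval was -0.41 to 0.97. The day-4 libraries fell into 2 sets by Gm13394, over 10 CPM in 3 WT and 6 APCfl/fl libraries and under it in 3 and 4. Within the first set the log2 fold change of Dusp6 was 0.79 (adjusted p = 0.21) and within the second -0.57 (0.082). The 8 members called at day 4 kept their calls in both sets, with Etv4 at 2.68 and 4.91, Etv5 at 1.14 and 2.09, Fosl1 at 3.77 and 2.76 and Dusp5 at -0.59 and -0.65. APCfl/fl replicates 1 and 8, the library with the lowest total and that with the lowest Apc, were the lowest for Dusp4, at 9.56 and 11.3 normalised CPM beside 27.5 to 37.7 in the other 8, and without them Dusp4 rose by 2.07. Summed epithelial markers were lower in APCfl/fl mice than in WT, at 9490 to 12200 against 12200 to 16600. After division by them, 5 members in place of 3 lay above every WT mouse, namely Dusp4 (4.57 times WT), Spred1 (2.30), Etv4 (12.4), Etv5 (3.77) and Phlda1 (5.04), and 0 lay below. The share of all genes on that scale was not computed, so these counts have no background beside them.

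In Apcfl/+ tumours 9 of the 10 members were higher than in WT small intestine and 0 lower, where 31.4% of all genes were called higher and 61.5% in either direction. The members' median log2 fold change was 1.22, and 36.8% of all genes moved by more than 1 in either direction. Etv5 moved most of the 10, from 5.97, 8.91 and 8.46 normalised CPM in WT to 108, 90.1, 106, 134 and 170 in tumours, a 16.7-fold difference (log2 fold change 4.06 ± 0.27, SE, adjusted p = 1.76e-05). Dusp4 was at 62.6, 55.9, 68.1, 68.2 and 80.2 against 8.50, 8.97 and 10.3 and rose by 2.96 ± 0.15 (log2, SE; adjusted p = 8.35e-06). Neither overlapped WT, and 7 members in all lay above every WT sample, beside 26.0% of all genes. Summed epithelial markers overlapped, at 7290 to 13800 normalised CPM in tumours and 8600 to 10100 in WT, a ratio of medians of 1.47. After division by them 4 members lay above every WT sample (Dusp4 at 6.03 times WT, Spry2 at 1.55, Etv4 at 4.79 and Etv5 at 12.9), Dusp5 lay below every one at 0.735, and Spry4, Spred1 and Phlda1 overlapped. Again the share of all genes on that scale was not computed. Etv4 rose by 2.73 ± 0.51, Fosl1 by 1.83 ± 0.62, Phlda1 by 1.33 ± 0.33, Spry4 by 1.11 ± 0.25, Spry2 by 0.99 ± 0.12 and Spred1 by 0.87 ± 0.10 (log2, SE), with adjusted p from 0.00018 to 0.0305.

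Dusp6 was at 115, 72.9, 143, 134 and 142 normalised CPM in Apcfl/+ tumours and 77.0, 82.9 and 84.8 in WT, and rose by 0.68 ± 0.21 (log2, SE; adjusted p = 0.0212). Tumour replicate 2 lay below all WT samples, and the call was lost without any 1 of the 3 WT samples (0.64 to 0.72). Fosl1 lost its call without WT sample 1 or 2 (1.38 and 1.74). Dusp5 was at 10.7, 7.61, 16.1, 13.2 and 10.6 against 14.6, 10.6 and 13.1, with an interval of -0.56 to 0.50. The 1 tumour with Ddx3y over 10 CPM, alone against WT, gave log2 fold changes of 3.95 for Etv5, 2.92 for Dusp4, 0.65 for Dusp6, 0.68 for Spry4 and 1.13 for Phlda1, again values of a single library from which no call is read. In this comparison fibroblast, neutrophil, endothelial and Cajal or nerve markers lay above WT in every tumour, with ratios of medians from 1.6 to 3.85, and smooth muscle markers below (0.391). Their part was not tested.

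The difference between BRAF-mutant and Apc-mutant tissue was tested as the difference of their effects, each against its own WT. Between tumours, Dusp5 and Dusp6 had a larger effect in BA than in Apcfl/+ tumours, by 2.12 ± 0.39 and 1.62 ± 0.36 (log2, SE; adjusted p = 0.00128 and 0.00391). Etv5 had a smaller effect in BA tumours, with a difference of -4.32 ± 0.36 (log2, SE; adjusted p = 8.1e-06). These were 3 of the 10 members, where 39.7% of all genes tested differed. The effects on Dusp4 differed by 0.20 with an interval of -0.51 to 0.91, and those on Spred1 by 0.31 with an interval of -0.34 to 0.97. Etv4, Phlda1 and Fosl1 also missed the threshold, with wider intervals: -0.63 to 1.85, -0.25 to 1.91 and -2.11 to 1.76. Spry2 (-0.48 ± 0.19, SE, adjusted p = 0.0532) and Spry4 (1.05 ± 0.43, 0.065) lay near it. Spry4 passed without BA tumour 3, WT proximal colon 2 or small intestine WT 1. Spry2 passed without any 1 BA or Apcfl/+ tumour, WT proximal colon 2 or small intestine WT 3, and with RLE scaling (-0.51, adjusted p = 0.0414 in edgeR).

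At the early time points, the d30 BA effect exceeded the APCfl/fl effect for Dusp5 by 2.58 ± 0.24, Dusp6 by 2.07 ± 0.48, Dusp4 by 1.78 ± 0.32 and Spry2 by 1.00 ± 0.15, and was the smaller for Etv5, with a difference of -1.71 ± 0.31 (log2, SE), at adjusted p from 2.25e-08 to 0.00146. These were 5 of 10, where 36.6% of all genes differed. The days after induction and the tissues differ between these groups. Summed epithelial markers also moved in opposite directions, at 2.17 times WT in d30 BA and 0.742 times WT in APCfl/fl by their medians. After division by them, the ratios to WT in d30 BA and APCfl/fl were 0.982 and 1.30 for Spry2 and 5.97 and 4.57 for Dusp4. They were 2.43 and 1.61 for Dusp6, 1.78 and 0.827 for Dusp5, and 0.423 and 3.77 for Etv5. The differences of effects were not tested on that scale. Spred1 differed by 0.03 with an interval of -0.29 to 0.35, Spry4 by -0.42 with one of -1.24 to 0.39, and Etv4 by -0.30 with one of -1.43 to 0.83. Fosl1 passed when scaled by library totals alone (-1.63, adjusted p = 0.0332 in edgeR). Dusp5, Dusp6 and Etv5 passed in both the tumour and the early comparison, on the same side in each. In neither can the driver be told apart from the part of the gut.

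Between BA tumours and d30 BA tissue, 2 of the 10 effects had an unadjusted p under 0.05 (Spry2 and Spry4), beside 6315 of all 20637 genes tested. At the threshold 0 of the 10 differed in edgeR, where 16.3% of all genes passed. The differences of Dusp6 (-0.02, interval -0.74 to 0.71), Dusp5 (0.17, -0.63 to 0.96) and Etv4 (0.25, -0.34 to 0.85) missed it. Spry4 had a larger effect in tumours by 1.15 ± 0.40 (SE, adjusted p = 0.0586; passed without BA tumour 3, WT proximal colon 2 or d30 WT 1) and Spry2 a smaller one, with a difference of -0.50 ± 0.19 (SE, adjusted p = 0.0754; passed without d30 WT 2).

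**Figure D5:**
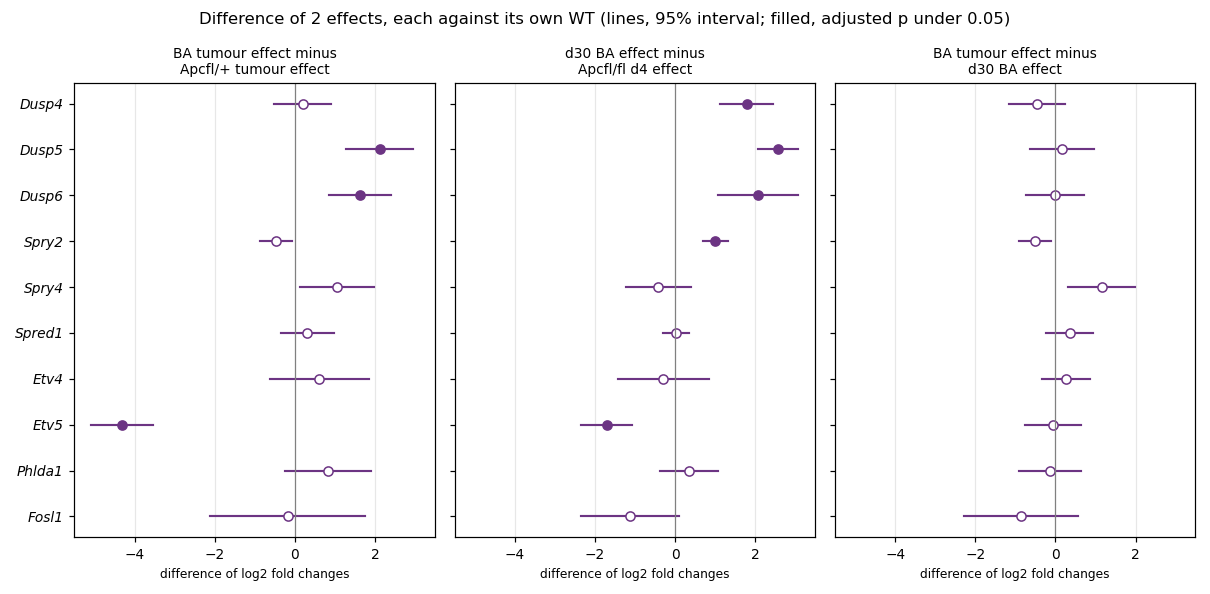
Difference of 2 log2 fold changes, each against its own WT, with 95% intervals and filled points where the adjusted p was under 0.05. Dusp5 and Dusp6 are filled on the right and Etv5 on the left in both comparisons of BRAF-mutant with Apc-mutant tissue, and no point is filled for BA tumours against d30 BA.

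A list of 25 other ERK-responsive genes was read beside the members. In BA tumours 13 were higher and 0 lower, beside the 7.46% and 5.71% of all genes given above, and the median log2 fold change was 1.31. In d30 BA 16 were higher and 1 lower than in d30 WT (25.8% and 29.3% of all genes), and 15 and 2 than in d30 A (21.7% and 23.6%), with medians of 0.74 and 0.60. The 10 epithelial markers had medians of 0.77 and 0.79 in these comparisons, with 9 higher and 0 lower in each. The list was not divided by their sum, and the part of epithelial content in its rise was not tested. In d30 A against d30 WT 0 of 25 were called, beside 0.141% of all genes. There, 3 had an unadjusted p under 0.05, as had 1717 of all 17713 genes tested. In BA tumours the largest rises that passed were those of Egr2 (3.25 ± 0.53), an immediate-early transcription factor, Plaur (3.15 ± 0.39), the urokinase receptor, and Epha2 (2.62 ± 0.39; log2, SE), an ephrin receptor. Egr1 (3.01 ± 0.87, adjusted p = 0.0513) and Dusp1 (2.71 ± 0.92, 0.0866; log2, SE) had higher values than Epha2 but missed the threshold. In d30 BA against d30 WT they were Epha2 (2.83 ± 0.15), Plaur (2.63 ± 0.16) and Ier3 (1.75 ± 0.21), an immediate-early gene, and the gene that fell was Etv1 (-1.38 ± 0.20; log2, SE), the third member of the Etv4 and Etv5 family. In APCfl/fl tissue at day 4, 9 were higher and 3 lower, beside 27.5% and 26.7% of all genes, led by Myc (1.93 ± 0.20), Epha4 (1.92 ± 0.28) and Plaur (1.79 ± 0.33), with Etv1 (-1.34 ± 0.25), Errfi1 (-0.71 ± 0.18), a feedback inhibitor of EGFR, and Fos (-0.47 ± 0.18; log2, SE) lower. In Apcfl/+ tumours 14 were higher and 1, Etv1 (-1.46 ± 0.26), lower, where 31.4% of all genes were higher and 61.5% called in either direction, led by Ier3 (3.34 ± 0.25), Plaur (2.89 ± 0.22) and Epha4 (1.65 ± 0.29; log2, SE). After antibiotics 3 of 25 were lower than in untreated BA, beside 8.50% of all genes, namely Dusp1 (-0.75 ± 0.14), Myc (-0.38 ± 0.10) and Spred2 (-0.30 ± 0.08; log2, SE).

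Epha2 differed between BRAF-mutant and Apc-mutant tissue, by 2.43 ± 0.42 between the tumours and 2.60 ± 0.31 between the early samples (log2, SE; adjusted p = 0.000878 and 7.13e-07). Egr2 and Egr1 also had larger effects in BA than in Apcfl/+ tumours, by 3.16 ± 0.72 and 2.83 ± 1.00, and Dusp10, a phosphatase of the stress kinases JNK and p38, and Ier2 smaller ones, with differences of -1.08 ± 0.36 and -0.89 ± 0.21 (log2, SE). Of the list, 5 of the 25 differed in the positive and 2 in the negative direction between tumours, where 39.7% of all genes differed.

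The 19 genes of the cascade itself had a median log2 fold change of 0.14 in BA tumours and 0.28 in d30 BA against d30 WT. In BA tumours 0 of 19 were called in edgeR, where 7.46% of all genes were called higher and 5.71% lower. At an unadjusted p under 0.05 there were 4, beside 5420 of all 19188 genes tested. In d30 BA against d30 WT 12 were higher and 2 lower, beside 25.8% and 29.3% of all genes, among them Nras (0.72 ± 0.07), Map2k2 (0.72 ± 0.08) and Rps6ka3 (0.65 ± 0.09) higher and Araf (-0.25 ± 0.07; log2, SE) lower. The 10 epithelial markers had a median log2 fold change of 0.77 in that comparison. The part of epithelial content in the cascade values was not tested. In Apcfl/+ tumours 5 were higher and 5 lower, beside 31.4% of all genes higher and 61.5% in either direction, with Ksr1 (-1.01 ± 0.12), the scaffold of the cascade, and Sos1 (-1.09 ± 0.12; log2, SE), a RAS activator, lowest. In APCfl/fl tissue 2 were higher and 6 lower, beside 27.5% and 26.7%, with Ksr1 at -1.41 ± 0.15 (log2, SE).

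Over the 11 group means of log2 normalised CPM, Dusp6 was most alike Stom (Pearson r = 0.953), Epha2 (0.946) and Spats2l (0.940) among 15479 genes tested in all 7 comparisons with WT. Among the members, Dusp6 and Dusp4 had an r of 0.884, Spry4 and Etv4 of 0.878, and Etv5 had its lowest, -0.355, with Dusp5. These 11 means come from 2 tissues that differ in cell content, and the values are a description.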

How the data were processed

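RNA was sequenced from whole tissue as paired 36-base reads. The authors trimmed the reads with Trim Galore 0.6.4 after FastQC 0.11.8, aligned them to GRCm38 with HISAT2 2.1.0 and deposited raw counts per gene from featureCounts 1.6.4. The strand setting and the handling of reads with several matches are not given in the sources used here. Every column of the table was mapped to a sample by its label, and 267 genes without a symbol were kept in the fits. The 10 members, the other lists and the tests were chosen with earlier results of these data known.

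Each comparison was fitted alone with edgeR 4.0.16 (quasi-likelihood test, TMM scaling, filterByExpr with a minimum count of 10) in R 4.3.3, and p-values were adjusted over all genes tested by Benjamini-Hochberg with a threshold of 0.05. Differences of effects were contrasts of 2 differences in 1 fit of 4 groups. Intervals are at 95%. Scripts were tested on simulated data. The limit for 0 reads is 3 counts, and such limits cover counting error only. Total reads on genes per library limit the precision of scarce genes such as Fosl1. Sums of markers and levels came from Python 3.11.15 with pandas 2.3.3 and numpy 2.4.6, and plots from matplotlib 3.10.9.

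All members tested are shown for each comparison in the figures, and the text gives values for some of them. From the lists of other output genes and cascade genes, at most the 3 largest and 3 smallest changes that passed were eligible for naming, and for likeness to Dusp6 the 3 genes with the highest correlation of log2(normalised CPM + 2). Epha2, given between BRAF-mutant and Apc-mutant tumours, was chosen outside that rule, after its values were seen, as were Egr1 and Dusp1 in BA tumours. The alternatives were RLE scaling, scaling by library totals, no filter, DESeq2 1.42.0, a replicate block, a joint fit of the day-30 groups and leaving out each library. Samples of different groups with the same number were different mice. Their deviations correlated by -0.463 to 0.262, in no comparison over 0.1 for every pair, so the numbers do not pair the samples.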

Additional observations from a re-analysis of the deposited data

Results flagged for a closer look

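In 5 of the 90 sets of 1 gene in 1 group of 4 to 10 libraries, a single library stood apart from the others by Dixon's criterion, which chance alone meets in about 1 of 20 sets. Dusp5 was at 17.9 normalised CPM in d30 A replicate 1, beside 10.2 to 10.9 in the other 3. Dusp6 was at 53.0 in sulindac-treated A replicate 4, beside 32.8 to 35.2, and at 191 in day-4 WT small intestine replicate 2, beside 79.3 to 119. Spry2 was at 9.56 in APCfl/fl replicate 1, the library with the lowest total, beside 14.0 to 17.6. Fosl1 was at 1.29 in Apcfl/+ tumour replicate 3, beside 0.376 to 0.603.

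Effects differed by a test of the difference itself in both comparisons of BRAF-mutant with Apc-mutant tissue. Between BA and Apcfl/+ tumours the log2 differences were 2.12 for Dusp5, 1.62 for Dusp6 and -4.32 for Etv5. Between d30 BA and day-4 APCfl/fl tissue they were 1.78 for Dusp4, 2.58 for Dusp5, 2.07 for Dusp6, 1.00 for Spry2 and -1.71 for Etv5. Of all genes tested, 39.7% differed between the tumours and 36.6% between the early samples. Summed epithelial markers were at 2.17 times WT in d30 BA and 0.742 times WT in APCfl/fl. After division by them, Spry2 had ratios to WT of 0.982 and 1.30, and differences of effects were not tested on that scale.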

How the results depend on the processing

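Of the counts of members called, 69 of 75 under other settings and 138 of 148 with 1 library left out stayed within 1.5 times the reported count, and no call changed direction. The 75 include the fits with a single tumour, whose spread was assumed to be that of the other group. From these fits no call is read, and their effect sizes are given above. DESeq2 called 1 member (Etv4) in d30 A and 1 in sulindac-treated A against d30 WT, and 2 between antibiotic-treated and untreated BA. The joint day-30 fit called 1 in sulindac-treated A. Scaling by library totals gave 1 for BA tumours minus d30 BA (Spry4, 1.30). Leaving out 1 library at a time gave 0 to 3 members for antibiotics, 3 to 5 for BA minus Apcfl/+ tumours and 0 to 1 for BA tumours minus d30 BA. The causes were not tested.

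With the replicate block, Spred1 lost its call in BA tumours (adjusted p = 0.144), Dusp6 in Apcfl/+ tumours (0.137) and Etv5 in d30 BA against d30 A (0.0856), and no other member call was changed. Over all genes, the block lowered the calls from 2527 to 931 in BA tumours, 12650 to 8333 in Apcfl/+ tumours, 2172 to 1284 for antibiotics, 9 to 2 for sulindac-treated A against WT, 8596 to 2915 for BA minus Apcfl/+ tumours and 3371 to 1750 for BA tumours minus d30 BA, and gave 1 in place of 0 for sulindac. No filter and DESeq2 gave 72 and 132 in place of 25 for d30 A, 24 and 108 in place of 9 for sulindac-treated A against WT, and 1 and 7 in place of 0 for sulindac against untreated A. The joint day-30 fit gave 29 in place of 9 and, for antibiotics, 1074. Leaving out 1 library brought BA tumour calls down to 696 (without WT 1), 1089 (WT 3) and 1380 (tumour 4), d30 A calls to 15, sulindac-treated A calls to between 4 and 18, antibiotic calls to 1300 (treated replicate 5) and calls for BA tumours minus d30 BA to 2225 (WT 3). The day-4 libraries with Gm13394 over 10 CPM gave 5490 calls for APCfl/fl against WT in place of 9504.

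Scaling by library totals moved the share of calls that were higher from 46.9% to 30.31% in d30 BA, 55.0% to 39.9% with antibiotics, 50.7% to 71.0% in APCfl/fl, 48.0% to 24.7% in d30 BA against A, 34.8% to 51.4% for antibiotics against untreated, 52.1% to 18.2% for d30 BA minus APCfl/fl and 60.4% to 78.8% for BA tumours minus d30 BA. The median of all genes was then -0.178, -0.095, 0.268, -0.285, 0.0815, -0.549 and 0.173 (log2). Fosl1 had too few reads in most WT libraries for small changes to be detectable.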
